A study of Homo sapiens with 2 samples.

Results

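The 10 genes described here encode the core of DNA end joining, with PARP1 and its single-strand break partners, and were chosen because the telomere protein RAP1 guards chromosome ends against end joining. They are XRCC5, XRCC6, PRKDC, LIG4, XRCC4, NHEJ1, LIG3, XRCC1, PARP1 and POLQ, out of 10437 genes measured above an intensity floor on Affymetrix arrays. In all, 32 probe sets on the array were annotated to 1 of these genes alone. By the annotation, no probe set named one of them together with another gene. All 10 genes had at least 1 probe set past the floor, which was the median of all values (78.0 on the linear scale, 6.29 on the log2 scale) and had to be reached on 1 of the 2 arrays. Past it were 21 of the 32 probe sets.

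The cells were HCT116, an established epithelial line from a colorectal carcinoma. Lentivirus delivered a negative-control shRNA to one culture (shNC) and, to the other, the shRNA against RAP1 numbered 4 in the labels (shRAP1), both at a multiplicity of infection of 20 for 72 h. Each culture gave 1 array, so each group is 1 sample, differences have no replicate check and no test, and infection, culture and hybridisation cannot be told apart from the shRNA. A single shRNA was used, so an effect of that sequence on other transcripts cannot be told apart from that of lower RAP1.

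Log2 values of the 49293 probe sets correlated at 0.997 (Pearson) between the arrays, which share probe sequences and a normalisation method. A difference below is the log2 value in shRAP1 less that in shNC, and each gene takes the probe set that was brightest among those past the floor. Over the 10437 genes the differences had a median of 0.01 and an SD of 0.16 between genes. Probe sets of 1 gene differed from each other with a pooled SD of 0.11 (6135 genes with 2 or more probe sets), which describes the spread between probe sets on these arrays and no error between cultures. TERF2IP, the gene of the telomere protein RAP1, stood at 1311 in shNC and 624 in shRAP1, or 47.6% of the control, on its 1 probe set. The name of that probe set ends in _s_at, which marks probes shared with further transcripts. RAP1A and RAP1B, the small GTPase genes that share the name, stood at 88.0% and 93.3% of the control on their brightest probe sets. Of 10 epithelial markers, 8 were past the floor, and their brightest probe sets summed to 33033 in shNC and 33903 in shRAP1. None of 7 fibroblast markers, 2 of 9 leukocyte markers and 2 of 6 endothelial markers were past it, and no probe set of those lists exceeded 129.2.

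A double-strand break is closed by end joining when its ends are ligated with little or no use of a homologous template. In the classical pathway the Ku70 and Ku80 proteins, from XRCC6 and XRCC5, form a ring around the end and recruit the kinase DNA-PKcs, from PRKDC. The ligase LIG4 then seals the ends, held by XRCC4 and by XLF, the product of NHEJ1. Alternative routes use resected ends, PARP1, the XRCC1 and LIG3 pair that also seals single-strand breaks, and the polymerase theta encoded by POLQ. At telomeres these routes are held back by shelterin, the complex to which RAP1 belongs through its binding to TRF2.

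To show regulatory sequence from both ends of the range of differences, the 250 bases before the gene start are given for 3 members. These are PARP1 and XRCC6, the lowest of the 10, and NHEJ1, the highest. Sequences and gene starts are from RefSeq, build GRCh38.p14, on the strand of the gene from 5′ to 3′, and capitals mark GGGCGG, the GC box bound by SP1-type factors, or its reverse complement CCGCCC.
PARP1, chr1:226408094-226408343, minus strand: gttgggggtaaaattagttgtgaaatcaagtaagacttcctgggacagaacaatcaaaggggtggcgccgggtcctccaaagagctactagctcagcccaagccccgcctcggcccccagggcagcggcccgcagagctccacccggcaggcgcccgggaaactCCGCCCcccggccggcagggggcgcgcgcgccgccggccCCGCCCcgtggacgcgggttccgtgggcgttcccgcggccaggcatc
XRCC6, chr22:41621045-41621294, plus strand: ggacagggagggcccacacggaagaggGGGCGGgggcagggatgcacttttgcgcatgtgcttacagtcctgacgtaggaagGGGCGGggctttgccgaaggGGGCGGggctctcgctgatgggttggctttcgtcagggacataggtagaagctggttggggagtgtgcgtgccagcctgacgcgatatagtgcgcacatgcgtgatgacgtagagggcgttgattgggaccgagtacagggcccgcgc
NHEJ1, chr2:219160816-219161065, minus strand: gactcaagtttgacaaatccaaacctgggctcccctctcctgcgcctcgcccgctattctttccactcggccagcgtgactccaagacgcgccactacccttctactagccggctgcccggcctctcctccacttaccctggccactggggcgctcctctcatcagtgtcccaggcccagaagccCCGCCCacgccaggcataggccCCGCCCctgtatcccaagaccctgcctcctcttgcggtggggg
Such a window was available for 8 of the 10 members, with none for XRCC5 or PRKDC, and where a gene had several starts the most upstream was taken. The GC box occurred 2 times before PARP1, 3 times before XRCC6 and 2 times before NHEJ1, so all 3 of these windows held it. It was present on either strand in 7 of the 8 member windows, absent only from that of LIG4. Of the windows of 27305 genes, 42.2% held it. The 8 windows were 48.4% (POLQ) to 72.0% (LIG4) G and C, beside a median of 57.6% over all genes. TTAGGG, the telomere repeat unit, was searched on both strands because RAP1 acts at telomeres. It was in 0 of the 8 member windows and in 7.95% of all windows. CCAAT was found before XRCC1 and XRCC6, beside 33.0% of all windows. CCGGAAG, an ETS-type site, was found before LIG4, POLQ and XRCC4, beside 8.78% of all windows. In the member windows 0 of these matches overlapped another. A match is only a run of letters, and binding was not measured.

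Of the 10 members, 8 were lower and 2 higher in shRAP1, where 46.8% of all genes were lower and 53.2% higher. The median over the members was −0.07 (SD 0.15 between genes). PARP1 and XRCC6 were lower by at least 0.32 on the log2 scale, that is at 80% of the control or below, a size that 1.92% of all genes reached in that direction. The count of 2 became 0 when a gene was the median of its probe sets (PARP1 at −0.29 and XRCC6 at −0.30) and 0 with a lowess trend on brightness taken out (−0.32, just short of the size, and −0.31). No member was higher by that size, which 2.49% of all genes reached. The set had been put together with earlier results of these arrays known, PARP1 and XRCC6 among them, so these counts describe the genes and support nothing further. At the level of probe sets, 17 of the 21 past the floor were lower and 4 higher, where 50.6% of all single-gene probe sets past the floor were lower. Of those 21, 3 were lower by 0.32 or more, and 2.68% of all probe sets were. Of the 11 member probe sets below the floor on both arrays, 5 were lower and 6 higher.

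**Figure D1:**
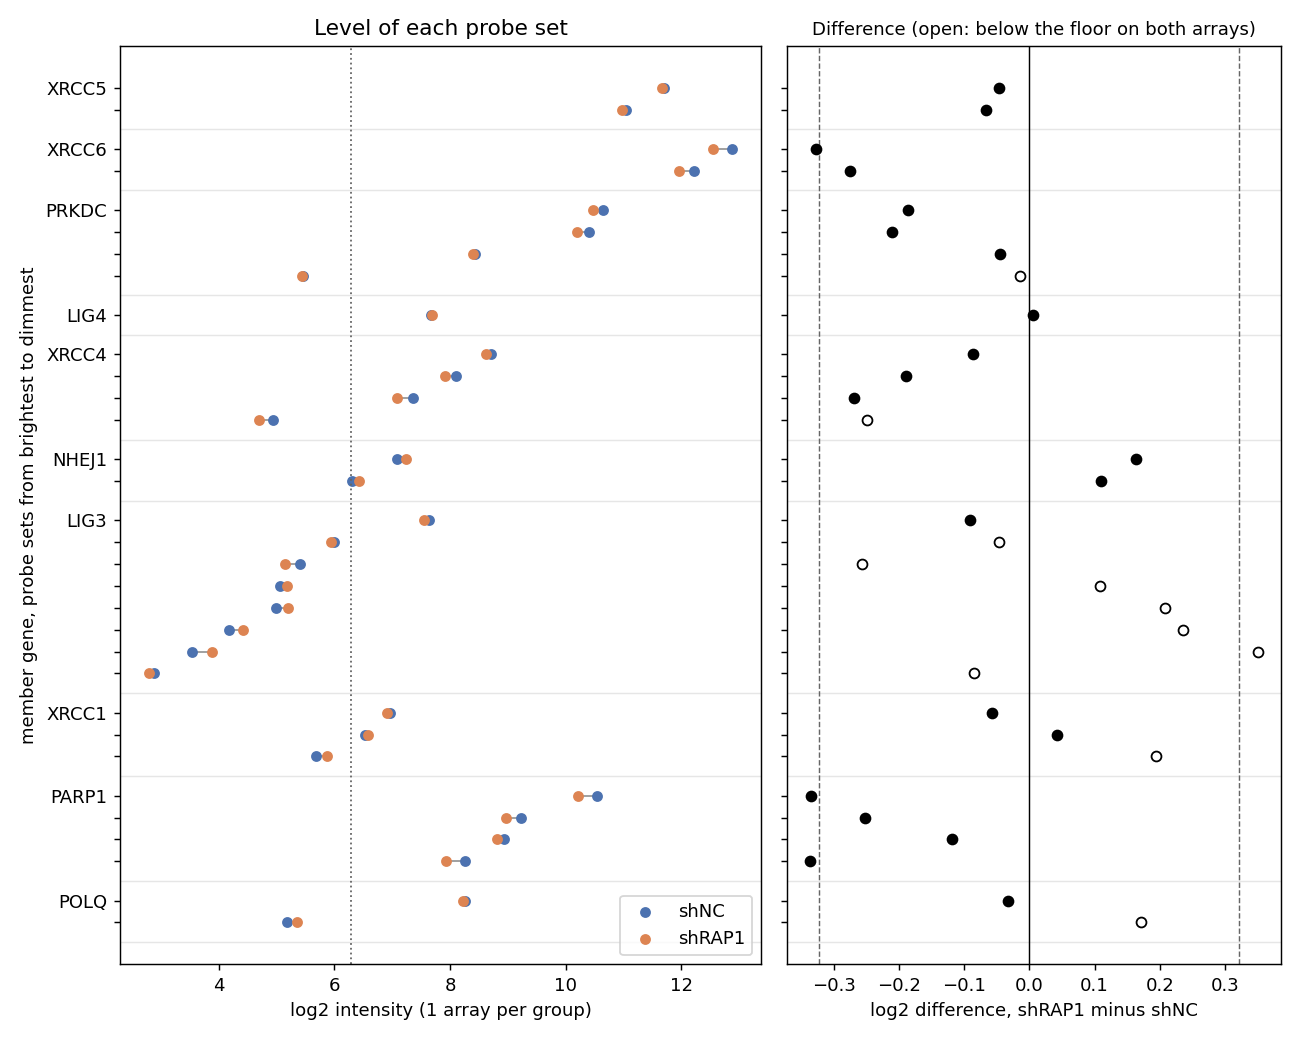
Left, log2 intensity of all 32 probe sets of the 10 members on the shNC and shRAP1 arrays, with the floor of 6.29 as a dotted line; right, the difference of each, filled where the probe set was past the floor, with dashed lines at 0.32 on either side of 0. All 4 PARP1 probe sets and both XRCC6 probe sets lie left of 0, both NHEJ1 probe sets lie right of it, and the open points of LIG3 fall on both sides.

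The Ku genes had differences of unlike size. XRCC6, which encodes Ku70, read 7530 in shNC and 6006 in shRAP1 on its brighter probe set and 4795 and 3963 on the other. Both probe sets were thus lower in shRAP1, with differences of −0.33 and −0.27, and the brighter was at 79.8% of the control. XRCC5, which encodes Ku80, read 3346 and 3240 on one probe set and 2098 and 2005 on the other, with differences of −0.05 and −0.07. The 2 products form one heterodimer, and the shRAP1 level of XRCC5 was 96.8% of the control on its brighter probe set. With 1 array per group the difference between the Ku genes was not tested.

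XRCC6 lay at rank 188 from the lowest of 10437 genes. Bright genes varied little on these arrays: among the 500 genes nearest to XRCC6 in brightness the SD was 0.096, and 0.4% had a lower difference. That is a spread between genes and no experimental error. The names of both XRCC6 probe sets end in _s_at or _x_at, which marks probes shared with further transcripts. The array also carried a probe set of the pseudogene XRCC6P5, a copy of XRCC6, which read 26.0 in shNC and 29.4 in shRAP1, below the floor on both arrays. How far transcripts of XRCC6 copies enter the XRCC6 signal was not tested.

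PRKDC, the gene of the DNA-PK catalytic subunit, was lower on all 3 probe sets past the floor. The values were 1610 in shNC and 1415 in shRAP1 on the brightest, 1360 and 1175 on the next, and 347 and 336 on the dimmest of the 3. The differences were −0.19, −0.21 and −0.04, so the brighter pair were alike and the dimmest of the 3 was nearer to 0. The name of the brightest probe set ends in _s_at. At 87.9% of the control on its brightest probe set, PRKDC was the third lowest member, with 8.81% of all genes below it. The remaining probe set, below the floor, read 44.0 and 43.6.

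In the ligation complex XRCC4 was lower, NHEJ1 was higher and LIG4 was close to 0. LIG4, the ligase, read 204 in shNC and 205 in shRAP1 on its only probe set, a difference of 0.0055, and that probe set ends in _x_at. XRCC4, the scaffold that stabilises LIG4, was lower on all 3 probe sets past the floor. It read 417 and 393 on the brightest, 275 and 242 on the second, and 164 and 136 on the third. These gave differences of −0.09, −0.19 and −0.27, the larger ones on the dimmer probe sets, and one below the floor read 30.7 and 25.8. The brightest probe set thus gave XRCC4 its smallest difference, and the median of the 3 was −0.19.

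NHEJ1, which encodes XLF, the partner of XRCC4 in aligning ends, was the highest member. Its probe sets read 135 in shNC and 151 in shRAP1, and 79.4 and 85.7. The differences were 0.16 and 0.11, so both probe sets were higher in shRAP1 and the brighter reached 112% of the control. Genes of that brightness were more often higher than lower, with 35.2% of the 500 nearest below 0 and a median of 0.06. Measured from 0 and not from that median, the difference of NHEJ1 was 1.00 times their SD. Of these nearest genes, 78.6% had a lower difference than NHEJ1. The size was common, as 14.8% of all genes were higher than NHEJ1.

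PARP1, which senses strand breaks and builds poly(ADP-ribose) chains, was the lowest member. Its brightest probe set read 1496 in shNC and 1186 in shRAP1, and the others 599 and 503, 490 and 452, and 307 and 243. All 4 were lower in shRAP1, by −0.33, −0.25, −0.12 and −0.34 from brightest to dimmest. The names of the probe sets at −0.25 and −0.34 end in _x_at and _s_at. The level in shRAP1 on the brightest was 79.3% of the control, or 1.26-fold lower. Among 831 genes with 4 probe sets past the floor, 28.0% had all 4 lower. By size PARP1 ranked 173 from the lowest of 10437 genes, and 0.8% of the 500 genes nearest in brightness were below it, with an SD of 0.15 among them.

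The partners of PARP1 in sealing single-strand breaks showed smaller differences. XRCC1, the scaffold that binds poly(ADP-ribose) and holds LIG3, read 125 in shNC and 120 in shRAP1 on its brightest probe set and 92.6 and 95.3 on the next. These gave differences of −0.06 and 0.04, so the sign depended on the probe set, and one below the floor was at 0.19. The names of the probe sets at −0.06 and 0.19 end in _s_at. LIG3, the ligase of nuclear single-strand break repair and of mitochondrial DNA, had 8 probe sets, of which 1 was past the floor. That one read 199 and 187, a difference of −0.09. The other 7 lay between −0.26 and 0.35, with values no higher than 63.7.

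POLQ, the polymerase that joins ends through short matching stretches, read 305 in shNC and 298 in shRAP1, a difference of −0.03. A second probe set, below the floor, read 36.1 and 40.7. On the brightest probe sets the classical and the alternative route each held 1 gene past 0.32 in size, XRCC6 and PARP1. Each also held genes within 0.10 of 0, XRCC5 and LIG4 in the one and XRCC1, LIG3 and POLQ in the other, and XRCC4 lay within it on 1 of its 3 probe sets past the floor.

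**Figure D2:**
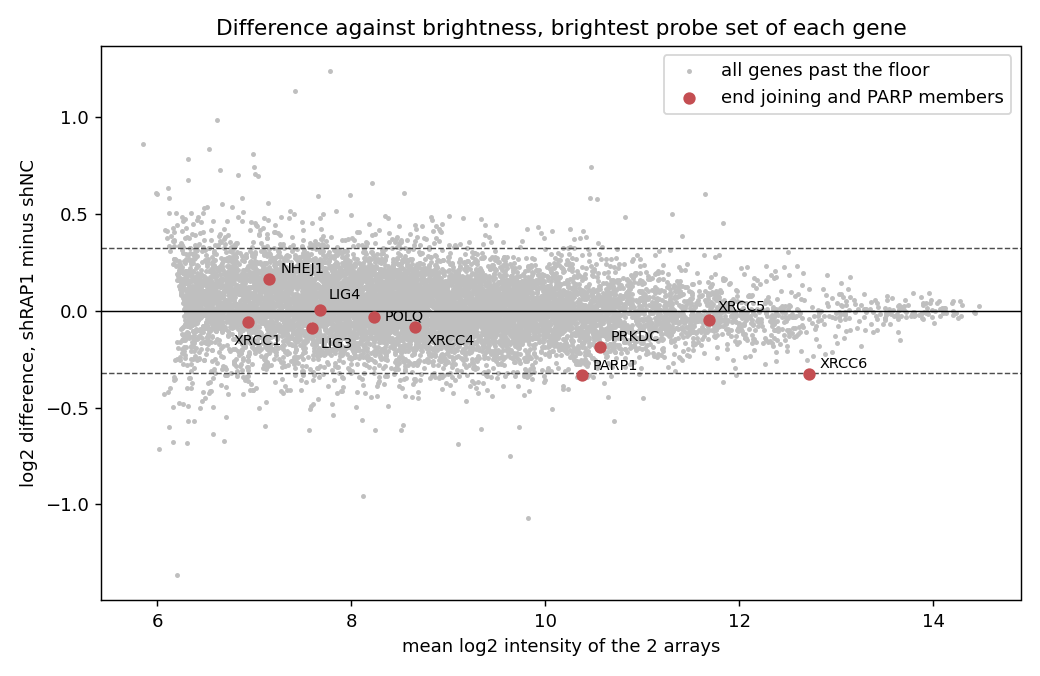
Difference of each gene (shRAP1 minus shNC, log2) against its mean log2 intensity on the 2 arrays, for the brightest probe set of 10437 genes in grey and the 10 members in red, with dashed lines at 0.32 on either side of 0. PARP1 and XRCC6 lie on or just past the lower line, XRCC6 at a brightness where few grey points do, and the other 8 members lie between the lines.

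The difference also varied with brightness over all genes. Among the 500 genes nearest in brightness, 60.2% were below 0 around XRCC6, 62.4% around XRCC5, 57.8% around PARP1 and 57.6% around PRKDC. Around the dimmer members the share was lower, at 48.2% for XRCC4, 40.4% for POLQ, 39.8% for LIG4 and 39% for LIG3. It was 35.2% for NHEJ1 and 44.6% for XRCC1, the dimmest. The bright members therefore sat among genes that were more often lower, with medians of −0.03 around XRCC5 and −0.02 around each of XRCC6, PARP1 and PRKDC. Of these nearest genes, 1.0% around PARP1 and 0.4% around XRCC6 were lower by 0.32 or more.

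The other genes of end joining did not share one direction. Of 12 accessory factors of the classical pathway, which process or bridge the ends, 8 were past the floor, 4 lower and 4 higher, with a median of 0.03 (SD 0.15 between genes) beside 0.01 over all genes. That median turned negative in 3 of 7 other settings, where it lay between −0.07 and −0.02. Over all genes 46.8% were lower and 53.2% higher, and 2.49% were higher by 0.32 or more. Of the 8, DCLRE1C, the gene of the nuclease Artemis, was past 0.32 in size, at 0.34, from 137 in shNC to 173 in shRAP1. Its second probe set, also past the floor, was at −0.47, so the direction of DCLRE1C is unsettled. WRN, a helicase with nuclease activity, was at 0.17, CYREN, a small regulator of end joining, at −0.11 and TDP2, which removes topoisomerase II adducts from ends, at −0.10.

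Genes that mark breaks and protect their ends from resection numbered 13, of which 9 were measured, 8 lower and 1 higher, with a median of −0.07 (SD 0.06 between genes). Of all genes, 46.8% were lower and 53.2% higher, and their median was 0.01. RNF8, a ubiquitin ligase at breaks, was at −0.17, and MAD2L2, of the shieldin complex, at −0.12. DYNLL1, a dynein light chain, was at −0.09 and the histone variant gene H2AX at −0.07. On brightest probe sets none of the 9 reached 0.32 in size, which 1.92% of all genes reached downward and 2.49% upward. RIF1 was at −0.07 on its brightest probe set, and its 7 probe sets past the floor ran from −0.18 to 0.42. Of 12 genes of end resection and single-strand binding 10 were measured, 7 lower and 3 higher, with a median of −0.04 (SD 0.11), and none of the 10 reached 0.32 in size. NBN, the signalling subunit of the MRE11 complex, was at −0.28, with all 5 probe sets between −0.30 and −0.09. Its partner RAD50 was at −0.08 with 3 probe sets between −0.19 and 0.07. DNA2, a resection nuclease, was at −0.14 and RPA1, which coats single-stranded DNA, at 0.11 and 0.28 on its 2 probe sets.

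Base excision and single-strand break repair, in which PARP1 and XRCC1 also act, was lower in 14 of 19 measured genes of 21, with a median of −0.07 (SD 0.14). FEN1, the flap endonuclease, was at −0.33 with 3 probe sets between −0.35 and −0.30. UNG, which removes uracil from DNA, was at −0.31 and −0.24 on its 2 probe sets. The glycosylase genes NEIL3 and NEIL1 were at −0.22 and 0.21, on 1 probe set each, in opposite directions. The other 5 genes were higher, beside 46.8% of all genes lower and 53.2% higher. On brightest probe sets FEN1 was the 1 gene of the list past 0.32 in size, which 1.92% of all genes reached in that direction. PCNA was at −0.11 on its brighter probe set and at −0.50 on the other, also past the floor.

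Among the other 16 PARP family genes, 14 were measured, 11 lower and 3 higher, with a median of −0.09 and a mean of −0.03 (SD 0.19). Over all genes 46.8% were lower and 53.2% higher. TNKS2, a tankyrase that modifies the telomere protein TRF1, went the other way at 0.48, from 8.59 in shNC to 9.07 in shRAP1 on the log2 scale, on 1 probe set, and was the 1 gene of the 14 past 0.32 in size. PARP16, of the endoplasmic reticulum, was also higher at 0.27 on 1 probe set. PARP9, which acts with the ligase DTX3L, was at −0.23 and PARP8 at −0.19. PARP2 and PARP3, the other PARPs that respond to DNA breaks, were at −0.03 and −0.0040, and these 2 were named after their values were seen. The difference of −0.33 in PARP1 was thus larger in size than those of its nearest relatives in function, a comparison that was not tested.

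Of 10 genes of ADP-ribose turnover and PARP cofactors, 9 were measured, 7 lower and 2 higher, with a median of −0.02 (SD 0.10). Over all genes 46.8% were lower and 53.2% higher. HPF1, which directs PARP1 to serine residues, was at −0.24 on 1 probe set. DTX3L had 2 probe sets, at −0.18 and −0.06. ADPRS, a hydrolase that removes ADP-ribose from serine, was at −0.10, and MACROD1, which removes it from acidic residues, was at 0.07. None of the 9 reached 0.32 in size, which only 1.92% of all genes reached downward and 2.49% upward.

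**Figure D3:**
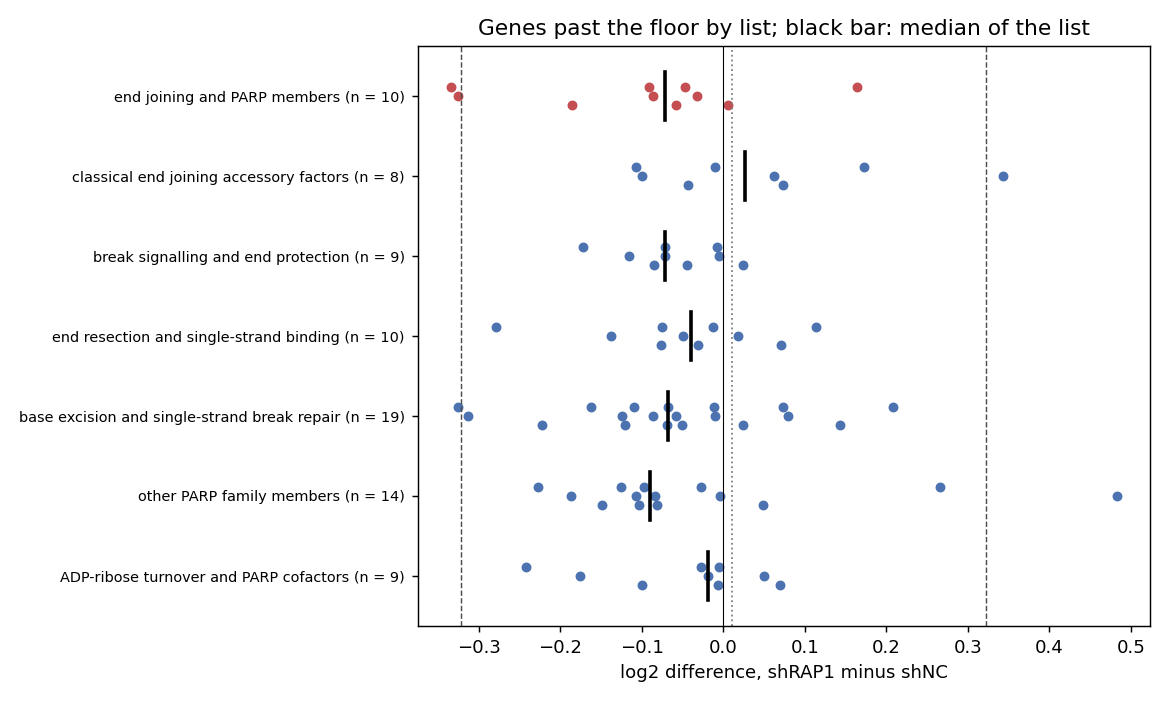
Difference (shRAP1 minus shNC, log2) of every gene past the floor in the 10-member set, in red, and in the 6 lists of related genes, in blue, with the median of each as a black bar, dashed lines at 0.32 on either side of 0 and a dotted line at the median of all genes, 0.01. Medians run from −0.09 in the other PARP family genes to 0.03 in the classical accessory factors, and TNKS2 is the point farthest to the right at 0.48.

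Among the lists' genes not analysed here were APLF, SHLD2, SHLD3 and RBBP8. DNTT, IFFO1, RNF168, SHLD1, HELB, PARP11, PARP15 and MACROD2 were below the floor on both arrays, the highest of them SHLD1 at 74.6.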

How the data were processed

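Per the labels' protocols, RNA was extracted with Trizol, and biotin-labelled cRNA was made with a 3′ in vitro transcription kit. The authors deposited 1 linear-scale intensity per probe set and array. The scale was read from the values, whose maximum was 25726 on both arrays, and log2 was taken here with no pseudocount. RMA, which corrects background, equalises the distribution of arrays and summarises probes, is the only tool in the submitters' processing notes. Its version, and which arrays were normalised as one set, is not given in the sources used here. Equalised distributions remove differences in total RNA, so differences are relative to the other genes. A floor is no detection call, and precision is limited by the number of arrays.

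Of 49293 probe sets without controls, 44988 had 1 gene symbol in the platform annotation, 1832 several and 2473 none. Only the first were used. Their symbols were set beside RefSeq (GRCh38.p14) and 0 needed updating. The members and lists were chosen with earlier results of these data known. All members were named, with TERF2IP, RAP1A and RAP1B and up to 4 genes per list, taken by the size of the difference. PARP2, PARP3, PCNA and RIF1 were named outside this rule, after their values were seen. With 1 array per group no test was made. The counting step was checked on simulated data. Python 3.11.15, numpy 2.4.6, pandas 2.3.3, statsmodels 0.14.6 and matplotlib 3.10.9 were used. Alternatives changed the summary of probe sets, the probe sets admitted, the floor, the centring, a pseudocount, the size counted and the summary of a list.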

Additional observations from a re-analysis of the deposited data

How the results depend on the processing

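No paired analysis was possible because each group has 1 sample and no test was made. Each value was recomputed under other settings, and 13 of 155 alternative values moved by more than the SD between probe sets of a gene (0.11), or by over 1.5 times for a count. PARP1, XRCC6 and TERF2IP kept their sign in each setting that gave them a value. The count of members lower by 0.32 or more (2) was 0 when a gene was the median of its probe sets, 0 with lowess centring (span 0.3), where PARP1 was at −0.32 and XRCC6 at −0.31, 1 when probe sets named _x_at or _s_at were left out, which leaves no value for XRCC6 or LIG4, and 0 at 1.5-fold. With the floor at the 75th percentile 5 members were measured, 5 lower and 0 higher, with a median of −0.19 and 11 probe sets lower and 0 higher. With lowess centring 1 member and 2 probe sets were higher, with no floor 10 probe sets were higher, and with _x_at and _s_at probe sets left out 11 were lower. The sign changed for XRCC1 without those probe sets (0.04), for LIG4 with lowess centring (−0.03) and, in 3 settings, for the median of the classical accessory factors (−0.07 to −0.02). The PARP1 difference ran from −0.33 to −0.29 over its 6 alternatives and that of XRCC6 from −0.33 to −0.30 over its 5. The floor settings could not move either value, because the brightest probe set of each stayed in. Leaving out _x_at and _s_at probe sets gave no value for TERF2IP or RAP1B and could not move PARP1. Neither the floors nor the median could move TERF2IP, with 1 probe set. The 155 values include the cases that could not move. The dimmest members, LIG3, XRCC1 and NHEJ1, lie closest to the floor.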

Other observations

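The windows before 3 members reach into a divergent or overlapping neighbour, found from RefSeq after the members' values were seen. TMEM167A, which starts close to XRCC4 on the other strand, read 1946 in shNC and 1695 in shRAP1 on its brighter probe set and 1150 and 1146 on the other, with differences of −0.20 and −0.0057. The brighter probe set was lower, as the 3 probe sets of XRCC4 were, while the other was close to 0. ABHD13, next to LIG4 on the other strand, read 203 and 187 on its probe set past the floor, a difference of −0.12, beside 0.0055 for LIG4. PINLYP, which overlaps the start of XRCC1, read no higher than 10.3 on either array.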
